A study of Mus musculus with 8 samples.

Results

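The constant regions of the T cell receptor and the chains of its CD3 complex were followed through T cells recovered from the ascending thoracic aorta of aged mice. They are 10 genes, taken by symbol from the 32285 genes of the deposited matrix: Trac, Trbc1 and Trbc2 for the alpha-beta receptor, Trdc, Tcrg-C1, Tcrg-C2 and Tcrg-C4 for the gamma-delta receptor, and Cd3d, Cd3e and Cd3g for CD3. No measured value entered the rule of choice, although earlier results of these data were known when it was made. The tissue came from 3 wildtype mice of 81, 84 and 88 weeks, whose cells were marked with hashtag antibodies and pooled into 1 suspension. The 8 samples of the series are 4 gene expression and 4 hashtag libraries of that pool, so the animal, identified by its hashtag, is the replicate. No young or treated animals are among these samples, and the only groups compared here are states of the T cells within the same animals.

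A T cell receptor is either a pair of alpha and beta chains or a pair of gamma and delta chains, and each chain joins a rearranged variable part to a constant region. Neither pair signals by itself: the CD3 chains carry the signalling motifs and are needed to bring the receptor to the cell surface. In a developing T cell of the thymus the beta chain is made first and pairs with the pre-T alpha chain (Ptcra). A burst of division follows, and the alpha chain is rearranged in CD4+ CD8+ cells that have left the cell cycle. The delta locus lies inside the alpha locus, so that a productive alpha rearrangement removes the delta constant region from that chromosome.

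The genes sit in 4 places of the mouse genome (GRCm38.p6 coordinates from RefSeq). Trdc (chr14:54142851-54146108) lies 74.4 kb from Trac (chr14:54220521-54224198). Trbc1 (chr6:41538219-41539665) and Trbc2 (chr6:41546730-41548181) are neighbours 7.06 kb apart. Tcrg-C1 (chr13:19214103-19216618), Tcrg-C2 (chr13:19305060-19307551) and Tcrg-C4 (chr13:19344558-19352343) share the gamma locus. Cd3g (chr9:44969572-44980431), Cd3d (chr9:44981769-44987052) and Cd3e (chr9:44998735-45009663) form a cluster of 40.1 kb in which Cd3g and Cd3d are separated by 1.34 kb. Trbc1 and Trbc2, and likewise Tcrg-C1 and Tcrg-C2, are near-identical copies, so the division of their reads between copies is uncertain.

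Promoter windows in RefSeq matched 3 of the 10 genes, the CD3 chains, and are shown because these neighbours did not change alike between the states described below. Each window runs from 250 bases before the transcription start to 50 bases after it, 5′ to 3′ on the strand of the gene. The capitals mark matches to CANNTG, the E-box motif that E proteins such as those of Tcf3 and Tcf12 bind. Cd3d is on the plus strand at chr9:44981536-44981835, Cd3e on the minus strand at chr9:45009562-45009861, and Cd3g on the minus strand at chr9:44980382-44980681.
Cd3d: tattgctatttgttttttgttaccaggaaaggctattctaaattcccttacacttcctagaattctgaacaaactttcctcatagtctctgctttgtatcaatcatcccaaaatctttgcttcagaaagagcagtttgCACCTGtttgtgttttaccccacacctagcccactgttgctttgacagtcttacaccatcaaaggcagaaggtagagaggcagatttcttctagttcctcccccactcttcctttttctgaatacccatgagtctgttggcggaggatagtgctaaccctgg
Cd3e: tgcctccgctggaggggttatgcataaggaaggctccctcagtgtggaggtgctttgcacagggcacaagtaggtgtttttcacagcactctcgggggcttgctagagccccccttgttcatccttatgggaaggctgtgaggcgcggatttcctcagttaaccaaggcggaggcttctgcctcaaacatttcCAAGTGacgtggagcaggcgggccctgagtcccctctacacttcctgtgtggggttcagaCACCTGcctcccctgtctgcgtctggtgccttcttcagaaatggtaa
Cd3g: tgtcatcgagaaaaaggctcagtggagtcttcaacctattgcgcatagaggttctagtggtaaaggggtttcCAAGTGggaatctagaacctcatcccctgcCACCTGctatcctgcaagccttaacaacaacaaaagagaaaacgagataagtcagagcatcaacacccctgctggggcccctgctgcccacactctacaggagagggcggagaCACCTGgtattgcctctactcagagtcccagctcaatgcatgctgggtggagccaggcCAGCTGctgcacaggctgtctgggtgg

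On both strands CANNTG matched 1 time for Cd3d, 2 times for Cd3e and 4 times for Cd3g, and 72.3% of 32851 promoter windows of the same length held it. The Tcf/Lef motif CTTTGAT matched 1 time for Cd3d and not in the other windows, against 3.73% of all windows. The Ets core GGAA matched 6 times for Cd3d, 5 times for Cd3e and 2 times for Cd3g (96.0% of all windows), with a match overlapping a CANNTG match in Cd3e and in Cd3g. TGTGGT, the Runx core, and TATAAA matched in none of the 3 windows (16.8% and 13.6% of all windows). These matches describe the letters and say nothing of binding.

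The matrix held 26916 barcodes with 900 to 104654 UMIs each (unique molecular identifiers, which count captured molecules), and 4175 cells passed the filters with 1 hashtag. Of these, 1674 were T cell-like by markers that leave out the 10 genes, with 34, 1292 and 348 cells from the animals of 81, 84 and 88 weeks. Sub-clustering, from which the 10 genes were also left out, placed 1634 of them in 4 states, each of which had UMIs of all 17 T cell markers. Resting cells (739) were high in Rag1 and Rag2, the recombinase genes, with Cd4 and Cd8a, replicating cells (390) in DNA replication genes, and mitotic cells (342) in genes of cell division. Rag1-low cells (163) had low Rag1 with genes of selected, mature T cells such as Il7r and Cd69. Rag1 and Dntt, which are known from thymocytes, were thus measured in cells labelled as aorta, and how such cells came to be in the suspension is not given in the sources used here. The animal of 81 weeks had 12 replicating cells and 6 or 7 in every other state, so only its replicating sum entered the main tests. With the animal as a block, a single sum adds nothing to a difference between states. All main comparisons therefore rest on 2 animals. Depth and quality differed between the states. Median UMIs per cell were 2858 in resting, 6288 in replicating, 6076 in mitotic and 3383 in Rag1-low cells, and median mitochondrial shares were 13.12%, 9.79%, 10.45% and 12.14%. The summed level of 8 erythroid markers ranged over the animals of 84 and 88 weeks from 3786 to 4062 CPM (the UMIs of a gene after scaling each sum to 1e6 UMIs) in resting, 1118 to 3151 in replicating, 3234 to 10630 in mitotic and 1736 to 5986 in Rag1-low cells. That of 10 smooth muscle markers was highest in resting cells (2050 and 2298 CPM). The part of these differences in the results was not tested.

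Trac, the alpha constant region, separated the 4 states most clearly among the alpha-beta constants. In Rag1-low cells it stood at 648 CPM in the animal of 84 weeks and 744 in that of 88 weeks. In resting cells the values were 283 and 310 CPM, and in mitotic cells 84.8 and 142 CPM. In replicating cells they were 57.0, 59.5 and 45.5 CPM in the animals of 81, 84 and 88 weeks. The states did not overlap, and both animals with all 4 states had the same order, from Rag1-low through resting and mitotic to replicating cells.

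Relative to resting cells, Trac fell by 2.31 ± 0.15 (SE) on the log2 scale in replicating cells, a 4.95-fold lower level (edgeR quasi-likelihood test on sums per animal, adjusted p = 7.2e-51). In mitotic cells it fell by 1.56 ± 0.15 (adjusted p = 2.6e-24), and in Rag1-low cells it rose by 1.2 ± 0.13 (adjusted p = 3.4e-17). Mitotic cells had a log2 difference of 0.75 ± 0.18 over replicating cells (adjusted p = 0.00033), under the 2-fold change that a call required here besides an adjusted p under 0.05. With at least 5 cells per sum that difference was 1.49 (adjusted p = 0.0021) without the animal of 84 weeks and 0.44 (adjusted p = 0.56) without that of 88 weeks. A log2 scale counts doublings, and CPM corrects for the total UMIs of a cell. Counted per cell instead, Trac was 0.873 UMIs in resting, 0.428 in replicating, 0.623 in mitotic and 2.53 in Rag1-low cells. On that scale the change was -1.05 in replicating and -0.43 in mitotic cells, the latter under the threshold, while the median gene stood at 1.27 and 1.11.

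The beta constants Trbc1 and Trbc2, whose chain is made before the alpha chain, moved much less. Trbc2 stood at 3867 and 3316 CPM in resting cells of the animals of 84 and 88 weeks, at 1814, 1941 and 1991 CPM in replicating cells of the 3 animals in order of age, at 2770 and 3370 in mitotic and at 2443 and 3412 in Rag1-low cells. Its replicating values lay below all others, and the other 3 states overlapped. Trbc1 stood at 2703 and 2699 CPM in resting cells, 2116 and 1851 in mitotic and 2129 and 1422 in Rag1-low cells. In replicating cells it was 1428 and 1475 CPM in the animals of 84 and 88 weeks, but 2886 CPM in the 12 cells of the animal of 81 weeks, which lay above the resting cells.

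None of the 4 comparisons passed the 2-fold threshold for either beta constant. The log2 difference between replicating and resting cells was -0.81 ± 0.11 for Trbc1 (adjusted p = 3.3e-12) and -0.80 ± 0.11 for Trbc2 (adjusted p = 2.3e-12). Counted per cell it was of the other sign, 0.48 and 0.49, both below the median gene. With at least 5 cells per sum and without the animal of 88 weeks, that of Trbc1 was 0.09 (adjusted p = 0.85). Trbc1 gave 41.8%, 43.2%, 42.4% and 42.2% of the summed beta constant UMIs in resting, replicating, mitotic and Rag1-low cells, although single sums ranged from 29.4% (Rag1-low, 88 weeks) to 61.4% (replicating, 81 weeks). For every 100 UMIs of the beta constants there were 4.48 UMIs of Trac in resting, 1.64 in replicating, 1.90 in mitotic and 14.2 in Rag1-low cells.

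**Figure D1:**
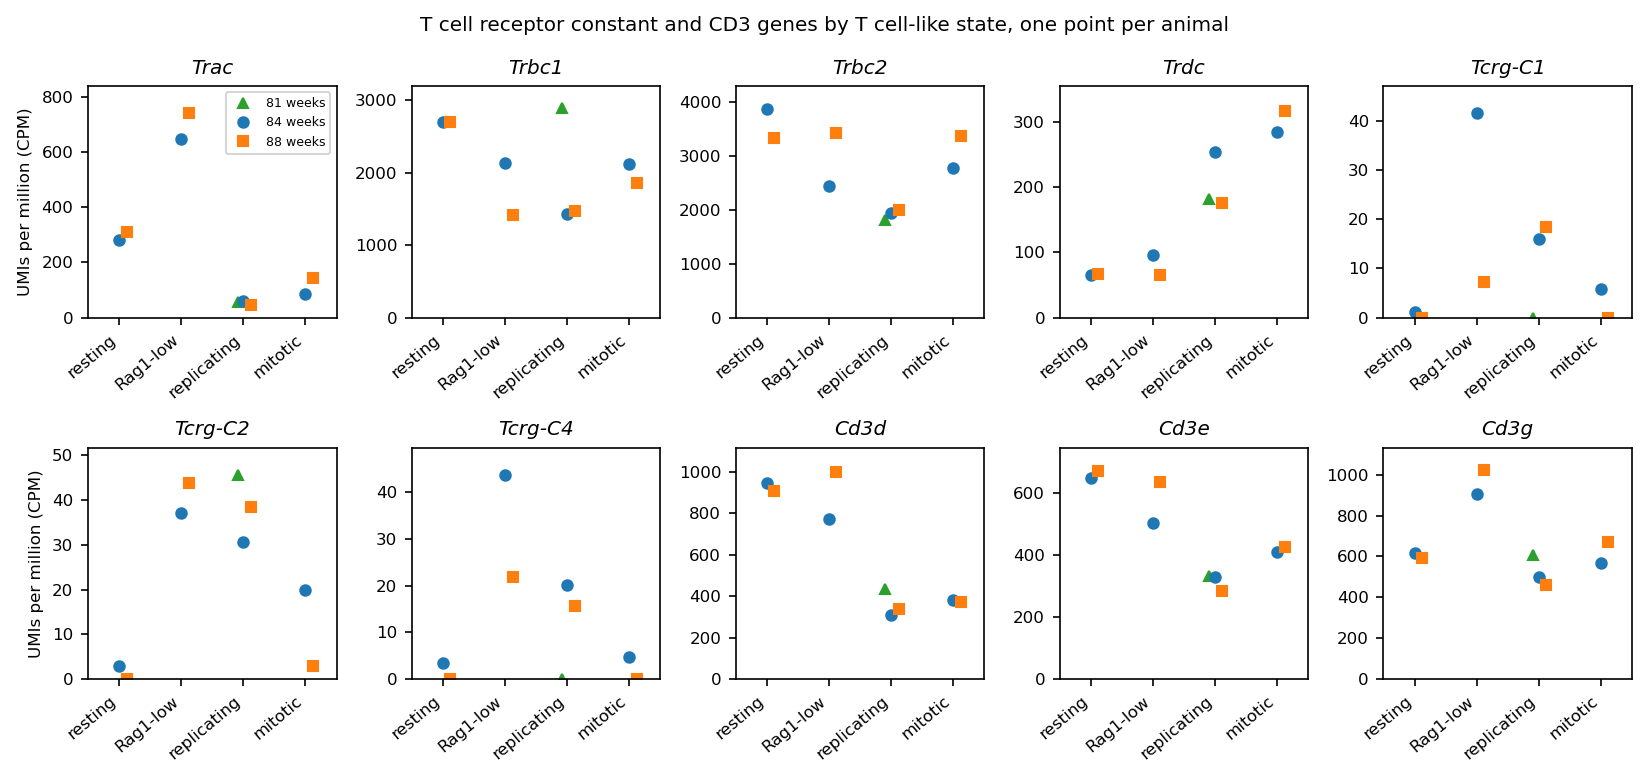
Level of each of the 10 genes in CPM (linear axis from 0) by T cell-like state, 1 point per animal with at least 10 cells in that state. Trac is highest in Rag1-low cells (648 and 744 CPM) and Trdc in mitotic cells (284 and 317 CPM). UMIs were counted at 3′ ends without correction for length, so levels are compared within a gene.

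The delta constant region Trdc went the other way from Trac. It stood at 66.1 and 67.6 CPM in resting cells of the animals of 84 and 88 weeks and at 96.1 and 65.6 CPM in Rag1-low cells. In replicating cells it was 182.5, 254 and 176 CPM in the animals of 81, 84 and 88 weeks, and in mitotic cells 284 and 317 CPM in those of 84 and 88 weeks. Every cycling sum lay above every resting or Rag1-low sum, while resting and Rag1-low sums overlapped.

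Trdc rose by 1.85 ± 0.16 on the log2 scale in replicating cells (3.62-fold, adjusted p = 5.2e-31) and by 2.16 ± 0.16 in mitotic cells (4.46-fold, adjusted p = 2.1e-40), both relative to resting cells. Mitotic and replicating cells differed by 0.30 (adjusted p = 0.063), and Rag1-low and resting cells by 0.39 ± 0.25 (adjusted p = 0.33). Neither of these passed the threshold, and the second was -0.08 with at least 5 cells per sum and without the animal of 84 weeks. Per cell, Trdc counted 0.200 UMIs in resting, 1.78 in replicating, 1.90 in mitotic and 0.331 in Rag1-low cells. For every 100 UMIs of Trac there were 22.95 UMIs of Trdc in resting cells, 416 in replicating, 306 in mitotic and 13.1 in Rag1-low cells. In the animals of 84 and 88 weeks the ratio was 23.3 and 21.8 in resting against 427 and 388 in replicating cells, and it was higher in the cycling states in both.

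The gamma constants were sparse in all 4 states. Tcrg-C1, Tcrg-C2 and Tcrg-C4 together gave 13 UMIs in resting, 201 in replicating, 59 in mitotic and 66 in Rag1-low cells, and Tcrg-C3, a further gamma constant, gave at most 1. Their summed level was 7.41 and 0 CPM in resting cells of the animals of 84 and 88 weeks, with all 13 UMIs in that of 84 weeks. It was 45.6, 66.8 and 72.5 CPM in replicating cells of the 3 animals in order of age, 30.6 and 2.96 CPM in mitotic cells and 122 and 72.9 CPM in Rag1-low cells. Replicating and Rag1-low sums lay above the resting sums in the animals of 84 and 88 weeks, and the 7 resting and 7 Rag1-low cells of the animal of 81 weeks had no such UMI. The mitotic sum of the animal of 88 weeks did not exceed the resting sum of that of 84 weeks.

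In the pooled UMIs of all animals the gamma constants were 11.6-fold (95% exact counting interval 6.62 to 22.1) over resting in replicating cells, 4.47-fold (2.42 to 8.88) in mitotic and 18.3-fold (10.0 to 36.2) in Rag1-low cells. These intervals cover counting error only. Between replicating and resting cells all 3 passed the test, with log2 changes of 4.19 ± 0.80 for Tcrg-C1 (adjusted p = 7.9e-07), 3.89 ± 0.50 for Tcrg-C2 (adjusted p = 9.4e-14) and 2.91 ± 0.62 for Tcrg-C4 (adjusted p = 1e-05). The resting side of these rests on 2, 5 and 6 UMIs, and the 3 genes passed the count filter only through other states. A call against resting cells was thus likely in advance. Under 10% mitochondrial UMIs Tcrg-C1 lost its call (2.37, adjusted p = 0.19) and Tcrg-C4 did not pass the count filter. In Rag1-low cells the 3 genes rose by 4.96 ± 0.87, 4.01 ± 0.64 and 3.77 ± 0.69, respectively. The same resting counts apply, and the 66 UMIs of Rag1-low cells came from 12 cells. With at least 5 cells per sum, none of the 3 passed the count filter without the animal of 84 weeks, and without that of 88 weeks Tcrg-C2 alone did, at 3.64 in replicating and 3.65 in Rag1-low cells. Mitotic cells differed from resting cells in Tcrg-C2 (2.84 ± 0.59, adjusted p = 1.3e-05, or 0.087 under 10% mitochondrial UMIs), whereas Tcrg-C1 (2.23 ± 1.04, adjusted p = 0.08) and Tcrg-C4 (0.51 ± 0.85, adjusted p = 0.68) did not pass. Of the 39 mitotic UMIs of Tcrg-C2, 38 came from the animal of 84 weeks.

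From replicating to mitotic cells all 3 gamma constants fell, by 1.97 ± 0.59 for Tcrg-C1 (adjusted p = 0.0053), 1.05 ± 0.33 for Tcrg-C2 (adjusted p = 0.0092) and 2.40 ± 0.58 for Tcrg-C4 (adjusted p = 0.00033), while Trdc did not pass in that comparison. The call of Tcrg-C1 was lost with doublet calls kept (-1.34, adjusted p = 0.065) and that of Tcrg-C2 under 10% mitochondrial UMIs (-1.16, adjusted p = 0.062). The change of Tcrg-C2 was -0.83 with at least 5 cells per sum and without the animal of 88 weeks, where Tcrg-C1 and Tcrg-C4 did not pass the count filter.

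The CD3 chains divided. Cd3d, the delta chain of CD3, stood at 945 and 905 CPM in resting cells of the animals of 84 and 88 weeks and at 773 and 999 CPM in Rag1-low cells. It was 433.5, 310 and 336 CPM in replicating cells of the 3 animals in order of age and 379 and 370 CPM in mitotic cells. All cycling sums lay below all others. Cd3d fell by 1.45 ± 0.12 on the log2 scale in replicating cells (adjusted p = 2.8e-31) and by 1.29 ± 0.12 in mitotic cells (adjusted p = 2e-23), both against resting cells. Rag1-low and resting cells overlapped (-0.13, adjusted p = 0.56).

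Cd3e, which carries the epsilon chain found in both CD3 dimers, showed a smaller difference. It stood at 649 and 672 CPM in resting, 331, 329 and 283 CPM in replicating, 408 and 426 CPM in mitotic and 502 and 634 CPM in Rag1-low cells, in the same order of animals. The change in replicating cells was -1.0 ± 0.12 (adjusted p = 9.4e-16), at the 2-fold threshold and just under it without the animal of 81 weeks, and -0.61 (adjusted p = 0.11) with at least 5 cells per sum and without the animal of 88 weeks. In mitotic cells it was -0.65 ± 0.12 (adjusted p = 9.2e-07), under the threshold.

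Cd3g, the gamma chain, had no such difference beyond the threshold. It stood at 617 and 591 CPM in resting, 605, 501 and 461 CPM in replicating, 569 and 672 CPM in mitotic and 904 and 1021 CPM in Rag1-low cells. Resting, replicating and mitotic values overlapped, and the Rag1-low values lay above them all. The log2 change in replicating cells was -0.24 ± 0.12 (adjusted p = 0.075) and in mitotic cells 0.02 (adjusted p = 0.92). In Rag1-low cells it was 0.63 ± 0.13 (adjusted p = 3.2e-05), under 2-fold. For every 100 UMIs of Cd3d there were 65.0 UMIs of Cd3g in resting, 155 in replicating, 154 in mitotic and 112 in Rag1-low cells.

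Counted per cell, where the median gene of replicating cells was 1.27 above resting on the log2 scale, Cd3d stood at -0.17, Cd3e at 0.27 and Cd3g at 1.04. The direction of Cd3e and Cd3g against resting cells thus depended on the scale. Cd247, which encodes the zeta chain of the same complex, changed by -1.30 ± 0.13 in replicating (adjusted p = 3.2e-21) and -0.52 ± 0.13 in mitotic cells (adjusted p = 0.00038), the first past the threshold.

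Across the 10 genes, 4 were called higher and 3 lower in replicating than in resting cells, where of the 8087 genes tested 17.3% were called higher and 12.7% lower, or 30% in all. In mitotic against resting cells 2 were called higher and 2 lower, where 12.0% of all genes were called higher and 6.06% lower (18.0% in all). In mitotic against replicating cells none was called higher and 3 lower, where 3.8% of all genes were called higher and 4.14% lower (7.94% in all). In Rag1-low against resting cells 4 were called higher and none lower, where 5.03% of all genes were called higher and 5.09% lower (10.1% in all). The first 2 of these comparisons and the last share the resting cells. The gamma constants, which passed the count filter only outside resting cells, gave 3 of the 4 higher calls in the first and last comparisons. They were also the 3 called lower in mitotic against replicating cells. The median log2 change of all genes lay between -0.01 and 0.01. Counted per cell, 97.7% of the calls in replicating cells were higher, against 57.5% on the CPM scale, and in mitotic cells 99.2% against 66.4%, both relative to resting cells.

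**Figure D2:**
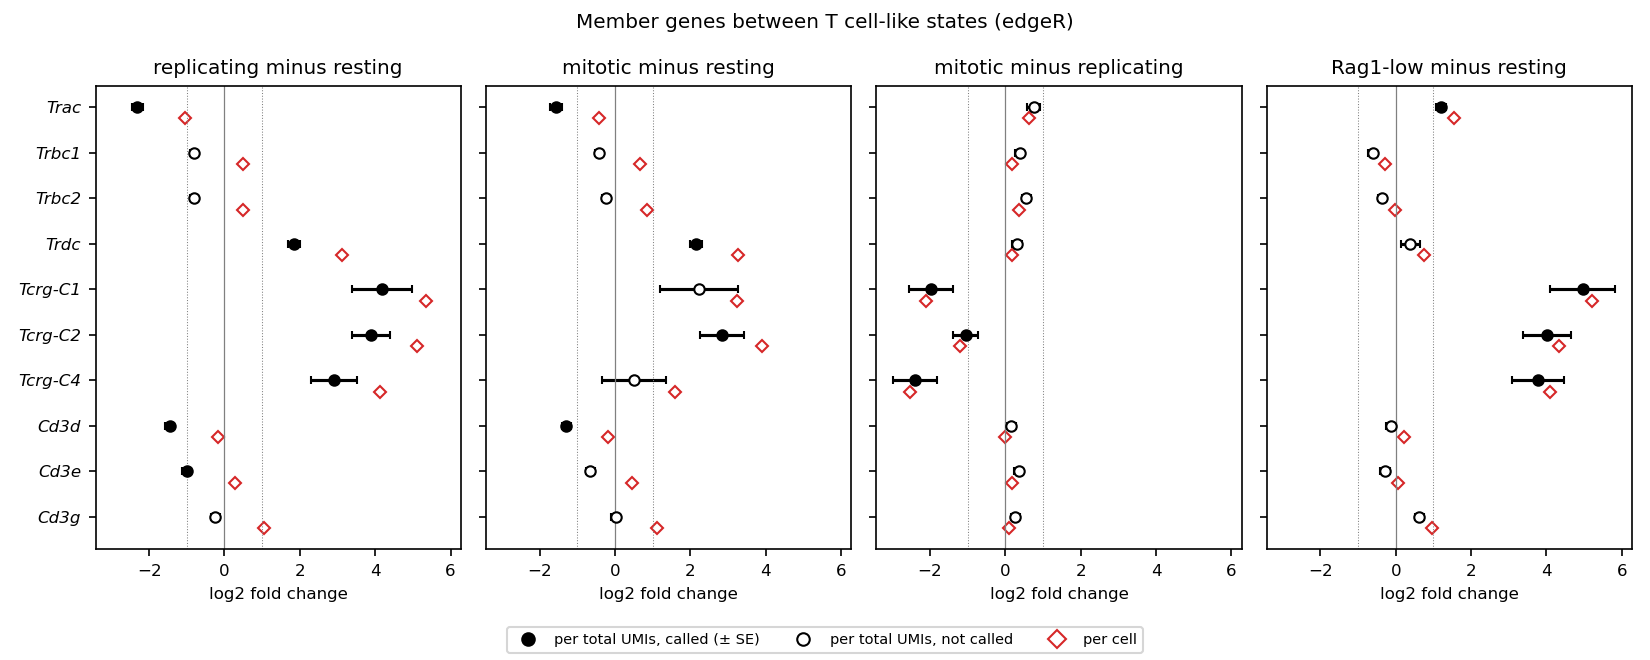
Log2 fold change of each gene in the 4 comparisons between T cell-like states, with the standard error as bars, filled where past the threshold, beside the value counted per cell. In replicating against resting cells Trac (-2.31) and Trdc (1.85) lie on opposite sides of 0, and Cd3d (-1.45), Cd3e (-1.0) and Cd3g (-0.24) are spread out.

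Within single cells, UMIs of alpha-beta and of gamma-delta constants met often. Each cell was thinned to 1000 UMIs so that the deeper cycling cells could be set beside the others. At that depth 38 of 739 resting cells had UMIs of both (5.14%, exact binomial 95% interval 3.66 to 6.99), as did 73 of 390 replicating cells (18.7%, 14.97 to 22.95), 85 of 342 mitotic cells (24.9%, 20.4 to 29.8) and 7 of 163 Rag1-low cells (4.29%, 1.74 to 8.65). In the animal of 84 weeks the shares were 5.40%, 19.8%, 26.1% and 5.17%, and in that of 88 weeks 4.43%, 14.4%, 21.4% and 2.5%. Both animals had the higher shares in the cycling states. Before thinning the shares were 12.2%, 63.3%, 61.1% and 10.4%.

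At full depth every one of the 1634 cells had a UMI of Trac, Trbc1 or Trbc2, so none had gamma-delta UMIs alone. Thinned to 1000 UMIs, 2 resting, 10 replicating, 5 mitotic and 2 Rag1-low cells did. At full depth, Trac and Trdc were in the same cell in 36 resting, 61 replicating, 75 mitotic and 1 Rag1-low cell. At full depth Trac was found in 26.6% of the replicating cells with Trdc and in 24.8% of those without, but the cells with Trdc were deeper (median 7011 against 5406 UMIs). Thinned to 1000 UMIs the shares were 4.17% and 7.23%. Among mitotic cells they were 7.14% and 8.53% after thinning, and among resting cells 23.7% and 24.96%. Among Rag1-low cells Trac was found in 10.0% of the 10 cells with Trdc and in 82.4% of the others at full depth, and in 0 of 6 against 49.0% after thinning. Free RNA may add to such counts, which was not tested. At 1000 UMIs Trac was found in 0.821% and Trbc2 in 6.98% of endothelial-like cells (median 4225.5 UMIs), which should lack both, against 24.9% and 92.3% of resting T cells. Trdc was found in 0.719% of the endothelial-like cells, against 5.14% of resting and 3.68% of Rag1-low cells.

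**Figure D3:**
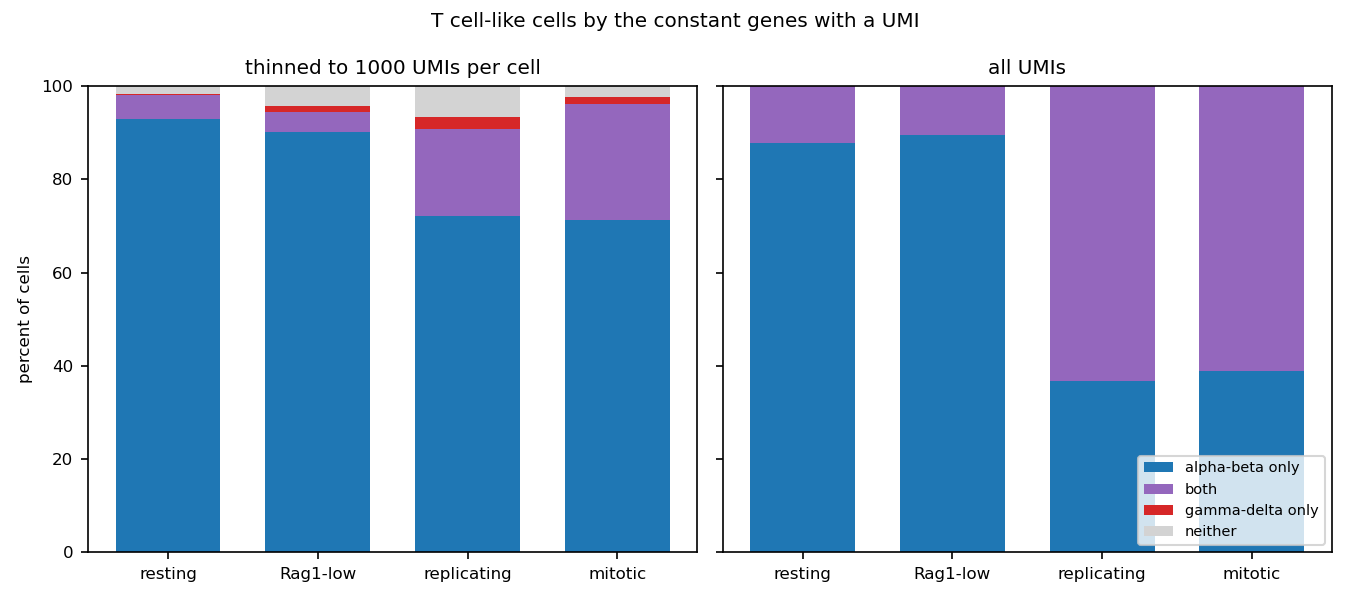
Percent of T cell-like cells in each state with UMIs of alpha-beta constants only, of both kinds, of gamma-delta constants only or of neither, at full depth and thinned to 1000 UMIs per cell. Thinned cells with both make up 18.7% of replicating and 24.9% of mitotic cells, against 5.14% of resting cells.

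How the UMIs were spread over cells differed by state. Trdc was found in 229 of 390 replicating cells, with at least 3 UMIs in 110 of them, and in 203 of 342 mitotic cells, with at least 3 in 90. In the Rag1-low state its 54 UMIs came from 10 of 163 cells, with 20 in a single cell, and the 66 gamma constant UMIs from 12 cells. These cells carried other genes known from gamma-delta and innate-like T cells. Rag1-low cells with Trdc had Sox13, a factor of gamma-delta T cells, at 121 CPM against 0 in those without, Maf at 555 against 5.21 CPM, and Zbtb16 at 48.3 against 3.47 CPM. Trac was 72.4 against 710 CPM and Cd4 72.4 against 224 CPM. The 10 cells had a median of 3661 UMIs, so such levels rest on few UMIs. Of the 10, 8 came from the animal of 84 weeks and 1 from each of the others. Groups split by a gene in the same cells are a description and were not tested.

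The replicating cells with a gamma constant UMI looked different. They were 63 cells, the 10 with most UMIs held 44.3% of the 201, and their median depth was 9947 UMIs against 5847 in the others. Rag1 stood at 247 CPM in them against 565 in the other replicating cells, Cd8a at 125 against 479 CPM, and Cd4 at 26.8 against 160 CPM. Sox13 was 1.34 against 0 CPM.

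Most gamma constant UMIs of the kept cells lay outside the T cell-like class. The 4 states held 81 of 367 UMIs of Tcrg-C1, 165 of 388 of Tcrg-C2 and 93 of 256 of Tcrg-C4, while a cluster of 82 cells held 595 of the 3 together. This cluster was led by S100a9 and S100a8, genes of neutrophils. The markers scored it as neutrophils, a name not used here because part of the cluster lacked neutrophil markers, as described below. Its summed gamma constant level was 691 ± 76.0 CPM (SD, n = 2 animals), against 36.0 ± 9.88 CPM (n = 3) in T cell-like cells. Trdc was 233 ± 61.3 CPM there and 165 ± 29.2 CPM in T cell-like cells, and Trac 0.84 CPM against 185 ± 12.1 CPM.

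The 82 cells were clustered again without the 10 genes, a step added after their levels were seen and given without a test. A sub-cluster of 32 cells, 23 from the animal of 84 weeks and 9 from that of 88 weeks, had no UMI of any of 8 neutrophil markers and UMIs of 15 of 17 T cell markers. Gamma constant UMIs were in 32 of its 32 cells, at 1299 CPM in the animal of 84 weeks and 1136 CPM in that of 88 weeks. Tcrg-C1 was 517, Tcrg-C2 354 and Tcrg-C4 389 CPM. Trdc was in 22 cells at 433 CPM, and Trac gave 1 UMI (4.92 CPM). Both animals therefore contributed cells in which gamma constants were far above any of the 4 states.

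The beta constants and CD3 were present in the same 32 cells. Trbc1 stood at 1205 and Trbc2 at 1249 CPM, each below every sum of that gene in the 4 states. Cd3d was 565 CPM in the animal of 84 weeks and 852 CPM in that of 88 weeks, within the range of the states. Cd3e was 571 and 771 CPM, the second above every state sum, and Cd3g was 1526 CPM in the animal of 84 weeks and 2475 CPM in that of 88 weeks, above every state sum. Il2ra (689 CPM), Notch1 (477 CPM), Dntt (1235 CPM), Lck (767 CPM) and Thy1 (630 CPM) were present, and Cd4 and Cd8a were at 9.84 CPM each. Il2ra and Notch1 are known from early CD4- CD8- thymocytes, and the cells are given no name here. Of the other sub-clusters, 25 cells with high S100a8 (3841 CPM) and Mki67 (446 CPM) held 257 gamma constant UMIs in 17 cells, 9 cells with S100a8 at 10070 CPM held 82, and 16 cells held none.

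**Figure D4:**
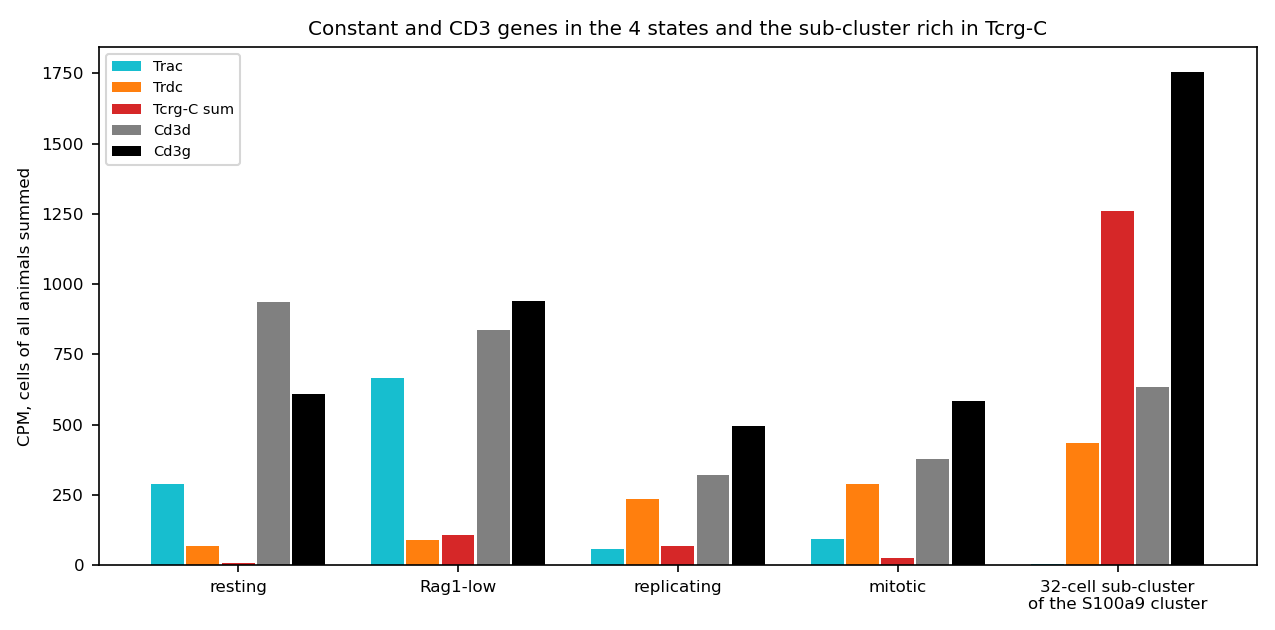
Level (CPM, linear axis from 0) of constant and CD3 genes in the 4 T cell-like states and in the 32-cell sub-cluster, pooled over animals. The gamma constants reach 1259 CPM in the sub-cluster, where Trac is at 4.92 CPM, and bars are to be compared within a gene.

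Variable segments, which are spliced to the constants, were counted by symbol. Segments named Trav summed to 181 CPM in resting, 40.7 in replicating, 88.8 in mitotic and 230 in Rag1-low cells. Of their 128 symbols, 10 carry the ending -dv, which marks segments that the delta chain uses too, and these gave 76 of the 121 UMIs in replicating cells and 102 of 403 in resting cells. The other Trav segments stood at 135, 15.1, 57.0 and 179.7 CPM, in the same order of states as Trac, and those with -dv at 45.8, 25.5, 31.8 and 50.2 CPM. Beta variable segments (Trbv) stood at 231, 108, 187 and 189 CPM. Delta variable segments (Trdv) stood at 24.2, 44.0, 64.0 and 43.7 CPM. Gamma variable segments stood at 8.52, 55.1, 23.0 and 46.9 CPM, and in replicating cells 149 of their 164 UMIs were of Trgv2. Reads from a 3′ kit seldom reach the variable part, so these are low counts, from 19 UMIs for gamma segments in resting cells to 514 for beta segments, and were not tested.

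The genes that act with the receptor were taken as 4 lists. Of 38 T cell receptor signalling genes, 25 were called lower and none higher in replicating than in resting cells, with a median log2 change of -1.21 beside 0.0 for all genes. All genes gave 12.7% lower and 17.3% higher calls there. Txk, a Tec family kinase, fell by 3.04 ± 0.17 (30.22 and 24.17 CPM against 249.6 and 257.3) and Cd5, a damper of receptor signalling, by 2.02 ± 0.24. Counted per cell, 4 of the 38 were called higher and 3 lower, with a median of 0.05 beside 1.27 for all genes. Most of all genes tested were called higher on that scale. In mitotic against resting cells 4 of 38 were called lower, beside 6.06% of all genes. Among the 4 were Txk (-1.93 ± 0.16) and Plcg1, a phospholipase that relays the signal (-1.09 ± 0.20). Counted per cell, none of the 38 was called lower there and 5 higher, with a median of 0.58 beside 1.11 for all genes. Most of all genes tested were again called higher on that scale. Against replicating cells 7 of the 38 were called higher in mitotic cells, beside 3.8% of all genes. The adaptors Sit1 (1.46 ± 0.28) and Trat1 (1.25 ± 0.15) were among the largest of these changes.

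In Rag1-low against resting cells 11 of the 38 were called higher and 8 lower, with a median of 0.06. All genes gave 5.03% higher and 5.09% lower calls there. Nr4a1, an early gene of receptor stimulation, rose by 4.44 ± 0.36 (172.5 and 160.4 CPM against 8.55 and 4.36), and Cd5 by 3.33 ± 0.16 (692.1 and 787.4 CPM against 62.69 and 91.57). Nfatc3, a calcium-regulated factor, fell by 1.75 ± 0.19. Cd69, Cd4, Cd8a, Cd8b1 and Themis of this list also served to name the states, so their changes are part of the definition.

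Of 8 genes of the pre-T cell receptor and of recombination, 3 were called lower in replicating than in resting cells (median -0.80, or 0.46 per cell with 2 higher and 1 lower), 1 was called lower in mitotic cells, and 6 were called lower in Rag1-low cells (median -2.0). The shares of all genes called lower were 12.7%, 6.06% and 5.09%, respectively. Per cell, most of all genes tested were called higher in replicating cells. Rag1, Rag2 and Dntt among the 8 genes helped to define the states. Dclre1c, the nuclease that opens the hairpins of cut segments, fell by 1.83 ± 0.22 in replicating cells, and was 1.35 ± 0.23 higher in mitotic than in replicating cells. Ptcra, the partner of the beta chain before alpha is made, fell by 4.33 ± 0.82 in Rag1-low cells (adjusted p = 3.3e-06). It stood at 36.8 CPM in resting cells, 1.74 CPM in Rag1-low cells without Trdc and 0 in those with it. The size of that fall thus rests on a level near 0. The difference of Ptcra between replicating and resting cells was 0.83 ± 0.23, under the threshold.

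In replicating against resting cells 17.3% of all genes were called higher. Of 12 transcription factors of the receptor loci, Tcf3, an E protein, was the 1 called there (1.02 ± 0.16). None was called higher there by DESeq2, without the block, under 10% mitochondrial UMIs, at 2 times the hashtag cutoff, or with at least 5 cells and without the animal of 84 weeks. Counted per cell, 6 of the 12 were called higher, with a median of 1.03 beside 1.27 for all genes. Most of all genes tested were also called higher on that scale. On the CPM scale 4 of the 12 were called higher and 1 lower in Rag1-low cells, beside 5.03% and 5.09% of all genes. Lef1 rose by 2.43 ± 0.13 (1369 and 1254 CPM against 243.3 and 244.2), Gata3 by 2.35 ± 0.21, and Tcf12 fell by 1.05 ± 0.15. Of 15 gamma-delta and innate-like genes, 4 passed the count filter. In Rag1-low cells 3 of these were called higher and 1 lower, among the higher Maf (3.05 ± 0.67) and Id3 (1.60 ± 0.22). All genes gave 5.03% higher and 5.09% lower calls there. Maf stood at 21.83 and 116.7 CPM in Rag1-low cells of the animals of 84 and 88 weeks. In the 10 Rag1-low cells with Trdc it was 555 CPM, against 5.21 CPM in the others, so its rise lay mainly in few cells.

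The genes most like a constant over the 9 animal and state sums were ranked by Pearson's r of log2 levels, as a description. For Trac they were Rasgrp1 (0.99), Il2rg (0.988), Tmsb4x (0.987), Ahnak (0.982) and Prkcq (0.981). For Trdc they included Rbm15 (0.989), Ssr1 (0.985), Tpx2 (0.982) and Ncapd2 (0.982), and Tpx2 is itself a mitotic marker. For the summed gamma constants they were Rexo2 (0.922), Pabpc1 (0.919), Ldha (0.905), Cxxc1 (0.902) and Trp53 (0.893). The sums share animals and depth.

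In the classes of the aortic wall the 10 genes were low. Trac averaged 185 ± 12.1 CPM (SD, n = 3) in T cell-like cells, 15.3 ± 6.91 in smooth muscle-like, 15.4 ± 13.2 in fibroblast-like and 10.2 ± 7.15 in endothelial-like cells, and macrophage-like cells had no UMI of it. The values of these 3 classes of the wall lay within their spread over animals. An erythroid-like class had 86.4 ± 67.6 CPM, and it also carried Rag1 (546.5 CPM). The CD3 genes together averaged 1624 ± 64.3 CPM in T cell-like, 88.7 ± 58.0 in smooth muscle-like and 60.9 ± 40.02 CPM in endothelial-like cells.

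**Figure D5:**
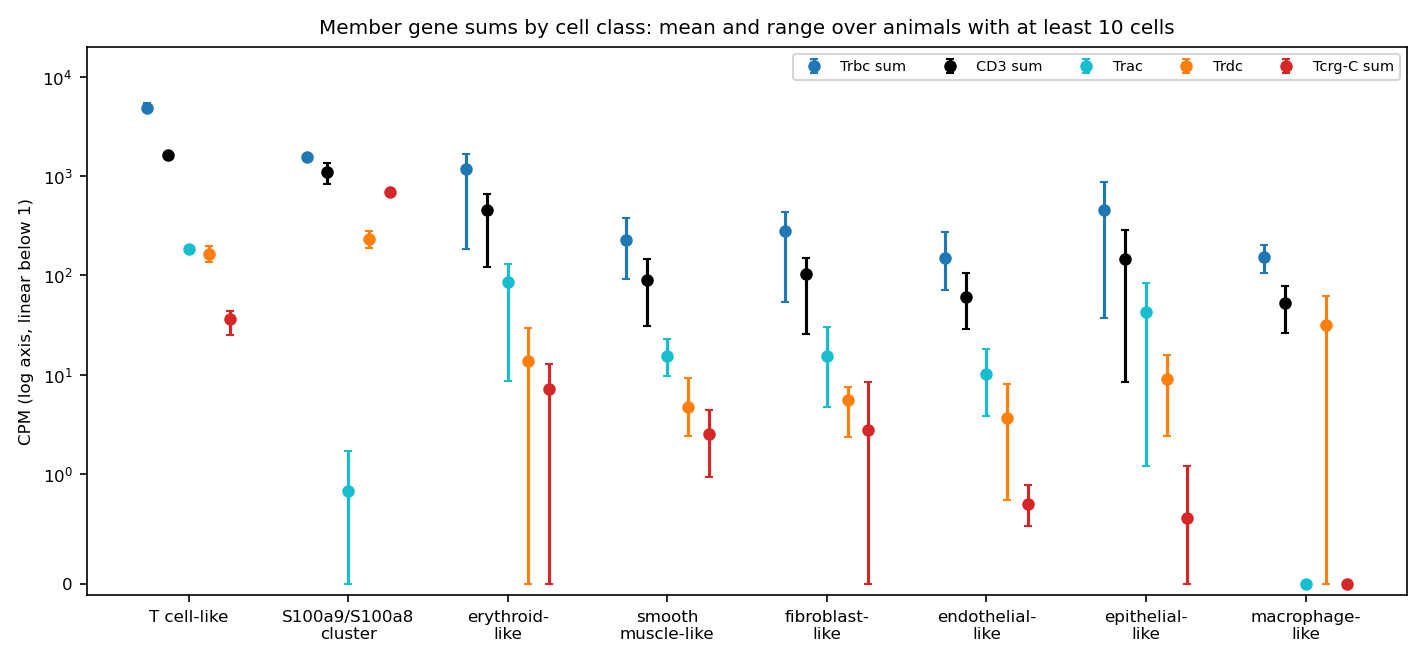
Mean level over animals with at least 10 cells (CPM, log axis, linear below 1) of gene sums by cell class, with the range over animals as bars. CD3 averages 1624 CPM in T cell-like cells against 60.9 CPM in endothelial-like cells, and the summed gamma constants are highest in the cluster led by S100a9 and S100a8 (691 CPM).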

How the data were processed

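The authors deposited 1 matrix of raw UMI counts per gene and hashtag, made with Cell Ranger 6.0.1 per the file headers, and the submitters' processing notes name Seurat 4.0.5 and mm10. How barcodes with under 900 UMIs were left out is not given in the sources used here, and the values do not keep the libraries apart. Animals were assigned with HTODemux of Seurat 5.3.0 (quantile 0.99, cutoffs of 129, 765 and 266 UMIs). Cells needed 500 genes, 1000 UMIs, under 15% mitochondrial UMIs, 1 hashtag and no doublet call by the Scrublet method (360 of 11301, or 3.19%). Kept cells held 5200412, 18049453 and 8192038 UMIs in the animals of 81, 84 and 88 weeks, and no barcode was repeated. They were clustered with scanpy 1.11.5 (2000 variable genes, 30 components, Leiden resolution 0.8) without the 10 genes, the listed genes, receptor segments, mitochondrial and ribosomal genes.

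Classes and states were named from markers. The scores needed (1.5 for a class, 1 for a state) were set after the data were seen, and the members, markers and lists were chosen with earlier results of these data known. UMIs were summed per animal and state with at least 10 cells, giving 9 sums, and tested with the quasi-likelihood test of edgeR 4.0.16 (TMM, filterByExpr, animal as a block, 3 residual degrees of freedom, Benjamini-Hochberg over 8087 genes). Calls required an adjusted p of less than 0.05 together with a 2-fold change. P-values rest on a spread between sums that edgeR moderates over all genes and shares among all states. With so few animals they do not measure how well the change of a single gene repeats between mice. The block rests on the states sharing their animals, and deviations of the same animal correlated at -0.01 to 0.05 between states over 5325 genes. The script was tested on simulated data. List genes were named as the 3 largest calls each way with the same sign in each animal and at least 50 CPM. Some genes that the rules name are not reported here. Alternatives were DESeq2 1.42.0, no count filter, no block, 5 cells per sum, leaving out each animal, stricter mitochondrial and hashtag limits, doublets kept, finer clusters, a split by Rag UMIs, other thinning depths and, chosen after seeing the data, scaling per cell and 5 cells per sum with an animal left out.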

Additional observations from a re-analysis of the deposited data

How the results depend on the processing

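Trac in replicating against resting cells (-3.05 to -1.05), Trdc in replicating (1.03 to 3.11) and mitotic cells (1.28 to 3.28) and Trac in Rag1-low cells (1.02 to 1.73) were called under every alternative run. With the animals numbered 1 to 3 by age, leaving out replicate 2 or 3 at 10 cells could not be fitted (no residual degrees of freedom), so 5 cells were used, which assumes that sums of few cells vary like the others. Leaving out replicate 1 at 10 cells removes a sum that adds to no difference between states, so it is no independent check. The fit without the replicate block gave 2267, 1360, 592 and 765 genes called against 2426, 1457, 642 and 819 with it, in the order replicating against resting, mitotic against resting, mitotic against replicating and Rag1-low against resting cells. Members called were 6, 4, 2 and 3 of 9 tested against 7, 4, 3 and 4 of 10, since 1 member did not pass the count filter there. Cd3g in mitotic cells was -0.09 without the block, and the other tested members kept direction and call.

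For all genes, leaving out animals gave 877 to 2341 calls in replicating, 403 to 1435 in mitotic, 323 to 639 in mitotic against replicating and 157 to 805 in Rag1-low cells, with 971, 366 and 404 in the last 3 without the animal of 88 weeks. Members called ranged from 4 to 6, 3 to 4, 0 to 3 and 1 to 4. With 5 cells and all animals, 4, 1 and 2 members were called in replicating, mitotic against replicating and Rag1-low cells, where 8 were tested, and 7 were tested without the animal of 84 weeks. DESeq2 called 832 genes in mitotic, 261 in mitotic against replicating and 399 in Rag1-low cells. Under 10% mitochondrial UMIs the calls were 1493 in replicating, 736 in mitotic and 239 in Rag1-low cells, with 4 members called in replicating and 1 in mitotic against replicating cells. At 2 times the hashtag cutoff they were 925 in mitotic and 478 in Rag1-low cells, and 527 for a split by Rag1 and Rag2 UMIs. Scaled per cell, 4949 genes were called in replicating and 4491 in mitotic cells. The causes were not tested.

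Directions turned as follows, among them Tcrg-C1 in mitotic cells (2.23 in the main test) and Cd3e in replicating cells (-1.0). Scaled per cell, replicating against resting gave Trbc1 0.48, Trbc2 0.49, Cd3e 0.27 and Cd3g 1.04, mitotic against resting Trbc1 0.66, Trbc2 0.86 and Cd3e 0.45, mitotic against replicating Cd3d -0.02, and Rag1-low Cd3d 0.21 and Cd3e 0.06. Without replicate 3, replicating gave Trbc1 0.09 and Cd3g 0.28, mitotic Trbc1 0.29, and mitotic against replicating Trdc -0.06, Cd3d -0.07 and Cd3g -0.26. Without replicate 2, the last gave Cd3d -0.07, and Rag1-low Trdc -0.08 and Cd3d 0.14. Under 10% mitochondrial UMIs, mitotic gave Trbc1 0.05, Tcrg-C1 -0.30 and Cd3g -0.08, and Rag1-low Trbc1 0.15, Trdc -0.18 and Cd3e 0.04. Cd3g in mitotic cells was -0.05 at 2 times the hashtag cutoff and -0.11 with finer clusters, and Cd3d in Rag1-low cells 0.09 under the Rag split. Of all member values, 437 kept direction and call, 14 lost and 11 gained a call. Cd3e lost its call in replicating cells under 10% mitochondrial UMIs (-0.60).

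Shares of cells with both kinds of constant rose with depth, to 9.42% and 12.2% of resting, 37.8% and 63.3% of replicating and 38.4% and 61.1% of mitotic cells at 2000 UMIs and unthinned, and 10.4% of Rag1-low cells unthinned. Trac was then in 29.5% and 44.2% and Trdc in 20.3% and 31.8% of T cell-like cells, Trac in 1.88% and 5.03% of endothelial-like cells, and Trdc in 1.85% of them unthinned. The animal of 81 weeks gave 34 T cells, which limits what 3 animals can show.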

Other observations

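Among the T cell-like cells given no state, 24 led by the natural killer genes Ccl5 and Nkg7, 21 of them from the animal of 84 weeks, had Trac at 253 CPM, Trbc1 at 695, Trbc2 at 827, Trdc at 68.5 and the summed gamma constants at 89.5 CPM. Their CD3 genes summed to 1490 CPM.

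The 2 sub-clusters that make up the replicating cells differed in their levels, given here without a test. Both were led by Ccne2. In the 167 cells led also by Dtl and Ung, genes of entry into replication, Tcrg-C1 was 29.2, Tcrg-C2 41.1, Tcrg-C4 24.7, Trdc 270 and Trac 43.4 CPM. In the other 223 cells, with Mki67 at 2233 against 880 CPM, Tcrg-C1 was 5.49, Tcrg-C2 26.3, Tcrg-C4 13.4, Trdc 204 and Trac 66.5 CPM. Of the mitotic cells, 112 led by Emp1 and Cenpa had Trac at 130, Trbc2 at 3649 and Cd3d at 554 CPM, against 78.7, 2514 and 302 CPM in the other 230.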
